A study of Mus musculus with 2 samples.

Results

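Dlx3, Dlx5, Dlx6, Msx1, Msx2, Twist1 and Twist2 are 7 developmental transcription factor genes with known roles in bone, and they were picked by symbol from the 27998 genes of the count tables. Each symbol matched 1 gene. The levels of the 7 genes were followed through the mesenchymal cell classes of the metaphysis and compared between mice that received teriparatide and mice that received vehicle. All mice carried Gli1-CreERT2, a tamoxifen-inducible Cre recombinase expressed from Gli1, and the Ai9 reporter, which makes tdTomato after recombination, on a mixed strain background. At 1 month of age they received tamoxifen on 3 days and then 3 daily injections of vehicle or of teriparatide at 400 ng per g of body weight. Cells of the femoral metaphysis that were tdTomato+ and CD31-, CD45- and Ter119- were sorted, a sort meant to take cells in which Gli1 was active at the time of tamoxifen and their descendants. A condition comprised 5 mice, of which 3 were male and 2 female, and gave 1 droplet library, and whether the cells of the mice were pooled before capture is not given in the sources used here.

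The Dlx and Msx genes encode homeodomain proteins that bind AT-rich DNA. Dlx proteins mostly activate and Msx proteins mostly repress the same kind of target, and in the skeleton these targets include the genes of osteoblast differentiation. Twist1 and Twist2 are basic helix-loop-helix proteins that pair with the widely expressed E proteins, bind the E-box, and are known to restrain Runx2, the master regulator of the osteoblast lineage.

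With 1 library in each condition no statistical test was possible. Levels are given as CPM, the UMIs (unique molecular identifiers, which count captured mRNA molecules) of a gene per 1000000 UMIs after pooling the counts of all cells that a library had in a class. The 95% intervals in parentheses are exact Poisson intervals for levels, Clopper-Pearson intervals for shares of cells and conditional binomial intervals for ratios. They cover counting error only, not the difference between mice. The vehicle library held 1286 barcodes with 10567335 UMIs and the teriparatide library 2142 barcodes with 26270041 UMIs, and 2 barcodes occurred in both, of which 1 was kept in both. After limits on genes and mitochondrial UMIs and removal of blood cell clusters, which the sort should have left out, 424 vehicle and 605 teriparatide cells remained, here called mesenchymal. Of the mesenchymal cells with a sex call from Y-linked genes and Xist, 52.6% were male in the vehicle library and 90.0% in the other, so the captured cells also differed in sex between the conditions. The median mesenchymal cell held 12236 and 21321 UMIs.

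The cells were clustered without the 7 genes and without the marker genes, and clusters were then named from markers. OB-like cells (osteoblasts, 96 vehicle and 93 teriparatide cells) met the rule for 4 of the 5 OB markers and were led by Ifitm5, Tmem119 and Bglap2. Osteocyte-like cells (17 and 38) were led by Mepe and Dmp1, and preOB-like cells (60 and 54) by Rgs5, Aspn and Postn. MALP-like cells, for marrow adipogenic lineage precursors (125 and 80), met it for 5 of 5 MALP markers, among them Cxcl12 and Lepr. COP-like cells, the chondrocyte-like osteoprogenitors (66 and 263), met it for 4 or 5 of the 5 COP markers, which include Col2a1 and Sox9, and hypertrophic-like cells (8 and 22) were led by Col10a1 and Ihh. A further cluster of 52 and 55 shallow cells, led by Cfd and by blood genes such as S100a9, S100a8 and Pf4, stayed unnamed and is counted in the mesenchymal totals. Rgs5 and Acta2, genes of pericytes and smooth muscle, were among the leading genes of the preOB-like cluster.

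Dlx3 was highest in OB-like and osteocyte-like cells, the mature end of the lineage. This activator of osteoblast genes such as Bglap (ENSMUSG00000001510, GRCm38 chromosome 11 from 95120119 to 95125296, plus strand) had 80.5 CPM (69.3 to 93.1) in OB-like cells of the vehicle and 72.6 CPM (62.6 to 83.7) of the teriparatide library. Osteocyte-like cells reached 49.1 CPM (16.0 to 115) and 84.9 CPM (54.4 to 126), which overlaps with the OB-like cells in each library. In preOB-like cells Dlx3 stood at 11.4 CPM (4.91 to 22.4) and 7.73 CPM (2.84 to 16.8). The OB-like over preOB-like ratio was 7.08 with vehicle and 9.39 with teriparatide, or 2.82 (1.81 to 4.06) and 3.23 (2.08 to 4.70) on the log2 scale. Over the processing alternatives it ran from 0.97 to 4.46 and from 1.88 to 3.83 on that scale, with 0.97 and 1.91 when each cell was gated by its own markers. Hypertrophic-like cells had 10.4 and 13.7 CPM, the former from 1 UMI. MALP-like cells held 1 UMI of Dlx3 among 125 vehicle cells and none among 80 teriparatide cells, which allows a share of cells with a UMI of up to 3.75% (3 counts of the total). COP-like cells held 1 UMI with vehicle and 11 with teriparatide. The OB-like class thus carried 91.5% of the 200 vehicle UMIs and 77.6% of the 245 teriparatide UMIs of the gene. A UMI of Dlx3 was seen in 67.7% (57.4 to 76.9) and 71.0% (60.6 to 79.9) of OB-like cells, or 22.3% and 15.4% when each cell was thinned to 3400 UMIs.

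Dlx5 was found in all 6 classes and was highest in preOB-like cells. It acts upstream of Sp7 and Runx2 in osteoblast differentiation and lies on chromosome 6 from 6877805 to 6882085, minus strand (ENSMUSG00000029755). preOB-like cells had 246 CPM (211 to 286) with vehicle and 137 CPM (112 to 165) with teriparatide. OB-like cells reached 70.0 CPM (59.5 to 81.7) and 57.7 CPM (48.8 to 67.7), so the preOB-like level was 3.52 and 2.37 times as high. Osteocyte-like cells stood at 196 CPM (120.0 to 303) with vehicle and 99.1 CPM (65.8 to 143) with teriparatide. Neither value was separated from the preOB-like level by the interval of the ratio, while both were above the OB-like level, by 1.49 (0.74 to 2.17) and 0.78 (0.14 to 1.37) on the log2 scale. The osteocyte-like values rest on few cells, with 20 UMIs in 8 of 17 vehicle and 28 UMIs in 15 of 38 teriparatide cells. The 5 cells with most UMIs held 85% and 64.3% of them. MALP-like cells reached 69.0 CPM (56.9 to 83.0) and 72.6 CPM (57.8 to 90.0), next to the OB-like values. COP-like cells reached 40.9 CPM (32.1 to 51.3) and 46.2 CPM (41.6 to 51.2), and hypertrophic-like cells 31.2 and 41.2 CPM. A UMI of Dlx5 was seen in 70.0% and 66.7% of preOB-like, 51.2% and 57.5% of MALP-like and 45.5% and 49.0% of COP-like cells. Thinned to 3400 UMIs, the preOB-like shares were 53.6% and 30.8%.

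Dlx6 was likewise highest in preOB-like cells. The 2 genes are neighbours on chromosome 6 and are transcribed towards each other, Dlx6 (ENSMUSG00000029754) from 6863334 to 6868568 on the plus strand. preOB-like cells had 55.5 CPM (39.4 to 75.8) with vehicle and 38.7 CPM (26.1 to 55.2) with teriparatide, and OB-like cells came to 29.0 CPM (22.5 to 36.9) and 25.6 CPM (19.8 to 32.5). The difference between these classes was 0.93 (0.32 to 1.53) and 0.59 (-0.08 to 1.24) on the log2 scale, and ran from 0.64 to 1.65 and from 0.29 to 1.66 over the alternatives. MALP-like cells had 15.3 and 15.7 CPM, COP-like cells 7.18 and 3.79 CPM, and hypertrophic-like cells had no UMI of Dlx6 in either library. Osteocyte-like cells held only 3 and 2 UMIs of it beside 20 and 28 UMIs of Dlx5. In OB-like cells 28 of the 35 vehicle cells with a UMI of Dlx6 also had one of Dlx5, and in preOB-like cells 20 of 23. In the teriparatide library these were 27 of 36 and 15 of 17. Of all OB-like cells 61.5% with vehicle and 66.7% with teriparatide had a UMI of Dlx5, and of all preOB-like cells 70.0% and 66.7%. The overlaps were not counted at equal depth, and deeper cells are likelier to show both genes. The antisense gene Dlx6os1 overlaps Dlx6 and had 90 UMIs in the mesenchymal cells. Whether counting used the strand is not given in the sources used here, and reads of an antisense pair cannot be told apart without it.

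Msx1 had the opposite course to Dlx3. This repressor, best known from tooth and limb development (ENSMUSG00000048450, chromosome 5 from 37820485 to 37824583, minus strand), had 42.7 CPM (28.8 to 60.9) and 41.2 CPM (28.2 to 58.2) in preOB-like cells of the vehicle and teriparatide libraries. MALP-like cells reached 28.1 CPM (20.6 to 37.5) and 30.6 CPM (21.3 to 42.6), not separated from the preOB-like cells. COP-like cells reached 9.94 CPM (5.89 to 15.7) and 6.44 CPM (4.80 to 8.47). OB-like cells held 10 and 5 UMIs, or 4.40 CPM (2.11 to 8.09) and 1.91 CPM (0.620 to 4.46), so Msx1 was 9.70 times and 21.6 times as high in preOB-like cells, or 3.28 and 4.43 on the log2 scale. Gating each cell gave 2.13 and 3.09, and male cells alone 5.26 and 4.25. No UMI of it was found in 17 and 38 osteocyte-like cells, which were shallow (medians of 5595 and 6438.5 UMIs), and this allows a share of cells with a UMI of up to 17.6% and 7.89%. Msx1 was seen in 28.0% (20.3 to 36.7) and 32.5% (22.4 to 43.9) of MALP-like cells and in 8.33% and 5.38% of the deeper OB-like cells.

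Msx2 was near the limit of detection. A relative of Msx1 with known roles in skull and limb bone, Msx2 (ENSMUSG00000021469, chromosome 13 from 53466884 to 53473074, minus strand) had 15 UMIs in the vehicle and 27 UMIs in the teriparatide mesenchymal cells. OB-like cells held 7 UMIs in each library, at 3.08 CPM (1.24 to 6.35) and 2.67 CPM (1.08 to 5.51). COP-like cells held 6 and 19 UMIs, at 3.31 CPM (1.22 to 7.21) and 2.40 CPM (1.44 to 3.75). None was found in the MALP-like cells of either library, where a count of 0 allows up to 1.83 and 2.62 CPM. At this depth no difference between the libraries was detectable in a class.

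Twist1 was highest in preOB-like and OB-like cells. It lies on chromosome 12 from 33957671 to 33959829, plus strand (ENSMUSG00000035799). preOB-like cells had 166 CPM (138 to 199) with vehicle and 148 CPM (122 to 178) with teriparatide, and OB-like cells came to 156 CPM (139.9 to 173) and 121 CPM (108 to 135). These classes were not separated in either library. MALP-like cells reached 60.5 CPM (49.2 to 73.6) and 51.6 CPM (39.3 to 66.6), below the OB-like cells by 1.36 (1.04 to 1.70) and 1.23 (0.82 to 1.65) on the log2 scale. COP-like cells reached 28.2 CPM (21.0 to 37.0) and 11.5 CPM (9.26 to 14.1). Osteocyte-like cells held 1 and 8 UMIs, at 9.82 and 28.3 CPM, so that Twist1 was lower in them than in OB-like cells by 3.99 (1.499 to 9.29) and 2.09 (1.10 to 3.32) on the log2 scale. In the same cells the intervals of Dlx3 overlapped those of OB-like cells and Dlx5 was above them. Twist1 was unevenly spread, since 1 OB-like vehicle cell held 51 UMIs and 1 teriparatide cell 33, and the 5 cells with most UMIs carried 38.7% and 30.4% of the total. For Dlx3 these shares were 21.3% and 25.8%.

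Twist2 had a distribution unlike that of its paralog. Twist2 (ENSMUSG00000007805, chromosome 1 from 91801461 to 91848028, plus strand), also called Dermo1, had 25.1 CPM (18.0 to 34.0) and 22.7 CPM (14.9 to 33.3) in MALP-like cells. These cells held 41 of its 53 vehicle UMIs and 26 of its 29 teriparatide UMIs. preOB-like cells had 2 UMIs in each library, below the MALP-like level by 3.14 (1.19 to 6.23) and 3.14 (1.14 to 6.26) on the log2 scale, and by 2.50 to 4.78 and 1.41 to 3.88 over the alternatives. OB-like cells had 1 UMI with vehicle and none with teriparatide, where Twist1 had 354 and 316. A UMI of Twist2 was seen in 28.0% (20.3 to 36.7) and 27.5% (18.1 to 38.6) of MALP-like cells. Of these, 19 of 35 vehicle cells and 11 of 22 teriparatide cells also held Twist1. Among all MALP-like cells, 60 of 125 with vehicle and 40 of 80 with teriparatide held Twist1, which are similar shares. Whether the 2 genes occur together more often than separately detected genes would was not tested.

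The sequences before the start sites of the 2 Twist genes are shown because the levels of these paralogs peaked in different classes. Of the 7 genes, Twist1, Twist2, Msx1 and Msx2 had an entry among the RefSeq promoters of GRCm38.p6, and Dlx3, Dlx5 and Dlx6 did not. Each line gives the 250 bases before the start, chr12:33957421-33957670 for Twist1 and chr1:91801211-91801460 for Twist2, both on the plus strand, with the CCAAT box in capitals.
Twist1: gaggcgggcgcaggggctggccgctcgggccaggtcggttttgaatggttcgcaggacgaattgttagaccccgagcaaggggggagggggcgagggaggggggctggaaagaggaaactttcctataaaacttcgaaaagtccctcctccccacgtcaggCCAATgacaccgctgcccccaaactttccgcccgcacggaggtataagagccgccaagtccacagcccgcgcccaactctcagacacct
Twist2: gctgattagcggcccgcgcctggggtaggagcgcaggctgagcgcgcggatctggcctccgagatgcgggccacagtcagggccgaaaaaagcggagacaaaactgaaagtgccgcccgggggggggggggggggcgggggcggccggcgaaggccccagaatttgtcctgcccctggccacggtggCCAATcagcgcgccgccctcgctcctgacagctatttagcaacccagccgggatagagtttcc
Each window held 1 CCAAT box, at -89 in Twist1 and -63 in Twist2, counted back from the base before the start. CCAAT, read on both strands, occurred in 33.8% of 32851 promoter windows of this length. Neither window held an E-box (CANNTG, the motif that Twist proteins bind, in 66.2% of windows) or the homeodomain core TAATT (in 25.0%). The window of Msx1 held 2 CCAAT boxes and 1 E-box, and that of Msx2 held 1 CCAAT box, 1 E-box and 3 matches to TAATT, 2 of them overlapping. The Msx2 window, chr13:53472781-53473030 on the minus strand, precedes the RefSeq start but lies within the gene span given above, 53466884 to 53473074.

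**Figure D1:**
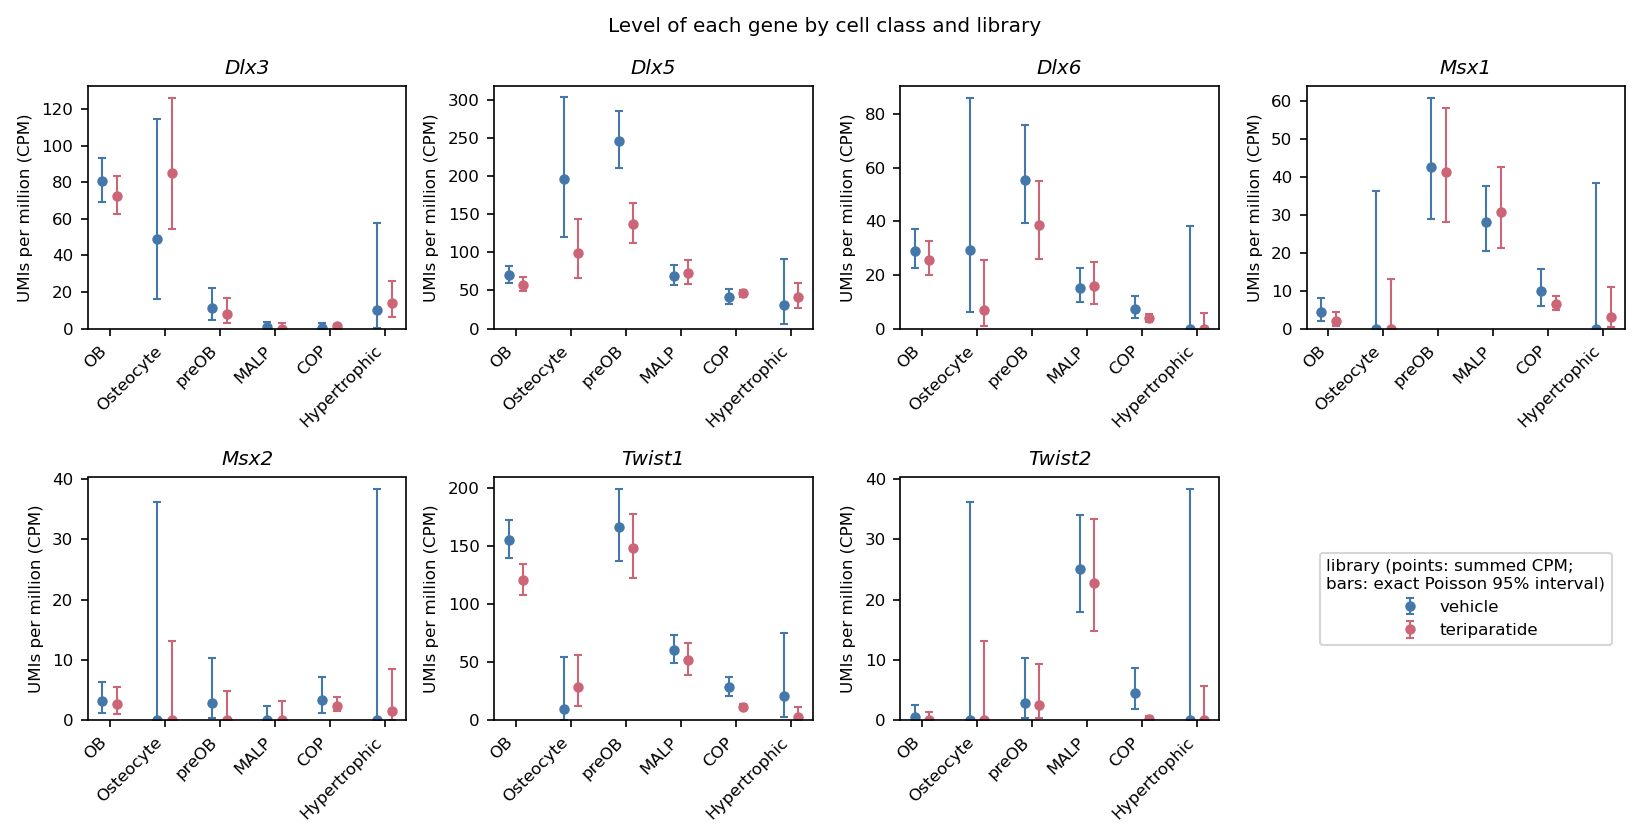
Level of each of the 7 genes (CPM, linear axis from 0) in 6 cell classes of the vehicle (blue) and teriparatide (red) libraries, with exact Poisson 95% intervals as bars. Dlx3 stands highest in OB-like and osteocyte-like cells, Dlx5 and Dlx6 in preOB-like cells, Twist1 in preOB-like and OB-like cells and Twist2 in MALP-like cells.

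The blood cells of the same libraries gave the background. No UMI of a member was found in 51 erythroid-like vehicle cells (median 9189 UMIs), which allows a share of cells with a UMI of up to 5.88%. In 166 teriparatide cells (median 10462 UMIs) Msx1 was seen in 1 cell and Twist2 in 1 cell, 0.602% each. In 73 and 443 hematopoietic-like cells 1 UMI each of Dlx6 and Twist1 was found, both with teriparatide. Against this, only 8.33% of OB-like vehicle cells and 7.53% of OB-like teriparatide cells held none of the 7 genes.

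Across all 11190 genes with at least 50 UMIs over the classes, few were at least 1.5-fold above each other class in both libraries. The class at the top was OB-like for 1.64% of genes, osteocyte-like for 3.19%, preOB-like for 1.27%, MALP-like for 5.39%, COP-like for 3.85% and hypertrophic-like for 1.57%. Of the 6 members with that depth, Dlx6 met this rule for preOB-like cells, by as little as 1.51-fold over OB-like cells with teriparatide, and Twist2 for MALP-like cells. For Twist2 the vehicle osteocyte-like and hypertrophic-like cells were too shallow to tell, since their 0 UMIs allow up to 29.5 and 31.2 CPM, above the MALP-like level. For Dlx3, Dlx5, Dlx6, Msx1 and Twist1 the interval of the ratio between the highest class and the next included 0 in each library. For Dlx6 the log2 ratio was 0.91 (-0.74 to 3.25) over the osteocyte-like cells with vehicle, which held 3 UMIs. With teriparatide it was 0.59 (-0.08 to 1.24) over OB-like cells. Dlx6 thus met the rule without being separated from the next class.

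The preOB-like and OB-like cells were also sorted on their level of Col1a1, the main collagen of bone and itself an OB marker. Ranges were below 3000 CPM, 3000 to 30000, 30000 to 100000 and above 100000 CPM, with 37, 20, 21 and 78 vehicle cells and 11, 32, 38 and 66 teriparatide cells. Of these, 37, 17, 6 and 0 vehicle cells and 11, 31, 12 and 0 teriparatide cells were preOB-like. The ranges thus largely repeat the contrast between these classes. Dlx3 had 7.31, 11.7, 52.7 and 84.3 CPM over these ranges with vehicle and 0, 8.18, 37.7 and 87.1 CPM with teriparatide. It was thus low until Col1a1 passed 30000 CPM in each library.

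Msx1 ran the other way, at 48.7, 31.1, 16.5 and 3.49 CPM with vehicle and 115, 28.6, 8.70 and 0.569 CPM with teriparatide. The last value is 1 UMI. Dlx5 stood at 234, 296, 105 and 63.8 CPM with vehicle and 70.8, 153, 80.2 and 51.8 CPM with teriparatide, highest in the second range in each. The intervals of Dlx5 in the first and second ranges overlapped in each library. Twist1 had 112, 253, 270.2 and 139 CPM in the vehicle, with its highest levels in the middle ranges. In the teriparatide library it had 115, 153, 138 and 114 CPM, with overlapping intervals. Its log2 ratio of teriparatide to vehicle was 0.04 (-0.98 to 0.95), -0.72 (-1.22 to -0.22), -0.97 (-1.37 to -0.56) and -0.28 (-0.55 to -0.02) from the lowest to the highest range. Cells of 1 range were not alike in other respects. Bglap2, an osteocalcin gene of mature osteoblasts, had 456, 1607, 3720.0 and 23165 CPM over the ranges with vehicle and 26.5, 521, 18558 and 23668 CPM with teriparatide, so that its levels were close only in the highest range. Its part in the ratios within ranges was not tested.

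**Figure D2:**
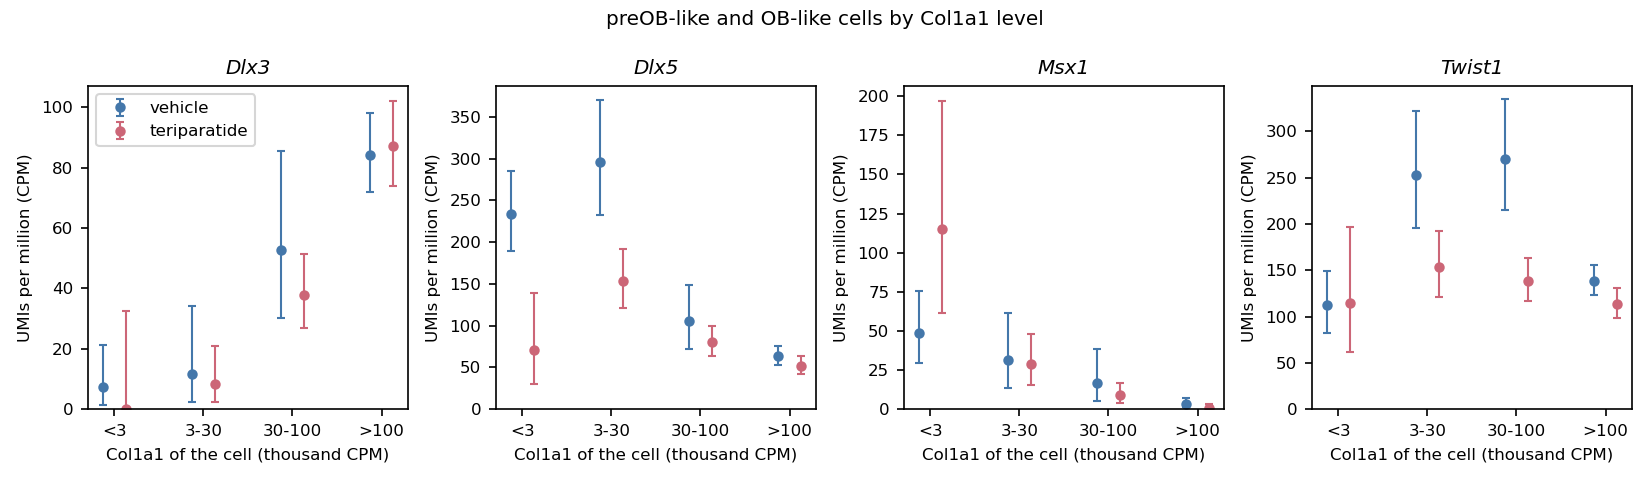
Levels of Dlx3, Dlx5, Msx1 and Twist1 (CPM, linear axes from 0) in preOB-like and OB-like cells of 4 ranges of Col1a1 in the vehicle (blue) and teriparatide (red) libraries, with exact Poisson 95% intervals. Dlx3 increases and Msx1 decreases with Col1a1 in both libraries, and Dlx5 is lower with teriparatide in the 2 lower ranges.

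Genes were next compared between the teriparatide and vehicle libraries within each class, among the 15 pairs of a member and a class with at least 50 UMIs. No pair was at least 1.5-fold higher with teriparatide and 3 were at least 1.5-fold lower. In OB-like cells 0 of 4 members were past 1.5-fold, beside 6.6% of all 6330 genes that were higher and 13.9% that were lower. In preOB-like cells 0 of 4 members were higher (8.27% of 4475 genes) and 1 was lower (18.4%). In MALP-like cells 0 of 4 were higher (8.24% of 6871 genes) and 0 were lower (10.1%). In COP-like cells 0 of 3 were higher (8.17% of 9208 genes) and 2 were lower (16.9%). These are few members, and apart from the COP-like cells their shares are near those of all genes. The median log2 ratio of all these genes was -0.15 in OB-like, -0.14 in preOB-like, -0.08 in MALP-like and -0.20 in COP-like cells, and that of the members was -0.23, -0.34, -0.03 and -0.63. In osteocyte-like and hypertrophic-like cells no member reached 50 UMIs.

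Dlx5 in preOB-like cells was lower with teriparatide, with 106 UMIs in 54 cells against 173 UMIs in 60 cells. The log2 ratio was -0.85 (-1.21 to -0.49). It was -0.68 (-1.18 to -0.18) in male cells, of which there were 26 and 37, and -1.47 (-2.43 to -0.63) in female cells, of which the teriparatide library had 6. Without the 5 cells with most UMIs of Dlx5 in each library it was -1.04. Leaving out preOB-like cells with a UMI of a pericyte or smooth muscle marker, which kept 43 and 37 cells, gave -0.91. Gating each cell by its own markers in place of clusters gave -0.52, which is less than 1.5-fold.

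The makeup of the preOB-like class differed between the libraries. It held 37 vehicle and 11 teriparatide cells with Col1a1 below 3000 CPM. Within that range Dlx5 had a log2 ratio of -1.72 (-2.98 to -0.69), from 96 and 8 UMIs, and from 3000 to 30000 CPM it was -0.95 (-1.43 to -0.47). In the 2 higher ranges, where OB-like cells are the majority, it was -0.39 (-0.998 to 0.24) and -0.30 (-0.71 to 0.10). In the 3 lower ranges the libraries also differed in Bglap2, by the levels given above. The summed level of the 5 MALP markers in preOB-like cells was 5590 CPM with vehicle and 2393 CPM with teriparatide, with all 5 seen in each. That of the 4 pericyte and smooth muscle markers was 1286 and 1517 CPM, and that of the 5 OB markers 11829 and 24325 CPM. Their part in the difference of Dlx5 was not tested.

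The other 3 members measured in preOB-like cells differed less over the whole class. Dlx6 had a log2 ratio of -0.52 (-1.26 to 0.20), with -1.17 (-2.17 to -0.20) in male and 0.17 (-1.49 to 1.61) in female cells, Msx1 of -0.05 (-0.81 to 0.72) and Twist1 of -0.17 (-0.55 to 0.22). Within the ranges of Col1a1, Msx1 was higher with teriparatide below 3000 CPM, at 1.24 (0.11 to 2.32) from 20 and 13 UMIs. Dlx6 was lower from 3000 to 30000 CPM, at -1.38 (-2.24 to -0.53) from 30 and 22 UMIs. In the other ranges the intervals of Msx1 and Dlx6 included 0. Dlx5 in osteocyte-like cells also had a ratio below 0, at -0.99 (-1.87 to -0.08), but from 20 and 28 UMIs.

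Twist1 in COP-like cells was lower with teriparatide, with 11.5 against 28.2 CPM and a log2 ratio of -1.29 (-1.80 to -0.77). The ratio was -0.79 (-1.40 to -0.15) in male and -2.47 (-3.93 to -1.11) in female cells. A UMI of Twist1 was seen in 36.4% (24.9 to 49.1) of vehicle and 18.3% (13.8 to 23.5) of teriparatide COP-like cells, with medians of 28718.5 and 30828 UMIs. Thinned to 3400 UMIs these shares were 7.69% (2.54 to 17.0) and 4.63% (2.42 to 7.95), with overlapping intervals. Twist2 had 8 UMIs in 5 of 66 vehicle cells and 1 UMI in 263 teriparatide cells, a log2 ratio of -5.13 (-10.60 to -2.23). Msx1 had 18 and 51 UMIs and a ratio of -0.63 (-1.43 to 0.24), past 1.5-fold but within counting error. Without the 5 cells of each library with most UMIs of Msx1 it was 0.07, but those cells held 61.1% of its vehicle and 33.3% of its teriparatide UMIs. Dlx5 had 74 and 366 UMIs and a ratio of 0.18 (-0.19 to 0.56). Without the 5 cells of each library with most UMIs of Dlx5 its ratio was 0.70, past 1.5-fold. The cells left out held 44.6% of its vehicle and 14.2% of its teriparatide UMIs. Leaving out 5 cells takes a larger part of the 66 vehicle than of the 263 teriparatide cells, which tends to raise ratios in this class. Thinned to 3400 UMIs the ratio of Dlx5 was -0.19 in a single random draw. A separate draw went the other way, with 36.2 CPM for vehicle and 53.4 CPM for teriparatide. The summed level of the 5 MALP markers in COP-like cells was 31.5 CPM with vehicle and 13.9 CPM with teriparatide, with 4 and 5 of them seen, and its part in these differences was not tested.

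The COP-like class joined 4 clusters, and Dlx5 differed widely between them. The clusters were led by Cpm, Meg3 and Sfrp5 (25 vehicle and 102 teriparatide cells), by R3hdml, Chad and Stc2 (24 and 98), by Ppa1 and Ndufa4l2 (13 and 53) and by the cycling gene Top2a (4 and 10). In the Cpm-led cluster, Dlx5 had 8.38 CPM (2.72 to 19.5) with vehicle and 5.94 CPM (3.39 to 9.64) with teriparatide. The other 3 clusters together had 56.8 and 67.1 CPM, higher by 2.76 (1.47 to 4.43) and 3.50 (2.78 to 4.32) on the log2 scale. Dlx6 had 0 UMIs in the Cpm-led vehicle cells against 13 in the others, and 4 against 26 with teriparatide. Msx1 and Twist1 showed no such gap, as the interval of the log2 difference included 0 for each gene in each library.

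Twist1 was lower with teriparatide in each of the 4 clusters. It had 25.1 and 8.91 CPM in the Cpm-led, 38.5 and 16.0 CPM in the Chad-led, 16.9 and 7.65 CPM in the Ppa1-led and 32.6 and 18.7 CPM in the Top2a-led cluster. The log2 ratios were -1.496 (-2.49 to -0.46), -1.27 (-2.002 to -0.50), -1.14 (-2.45 to 0.29) and -0.80 (-3.03 to 1.83), the last from 3 and 6 UMIs. Dlx5 in the Chad-led cluster was higher with teriparatide, at 81.2 CPM (71.0 to 92.5) against 47.8 CPM (32.5 to 67.8), a log2 ratio of 0.77 (0.22 to 1.36). In the Ppa1-led cluster it was 52.1 CPM (42.8 to 62.9) against 67.6 CPM (46.3 to 95.5). The Cpm-led cluster had 121 male and 2 female cells, the Chad-led cluster 95 and 19.

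**Figure D3:**
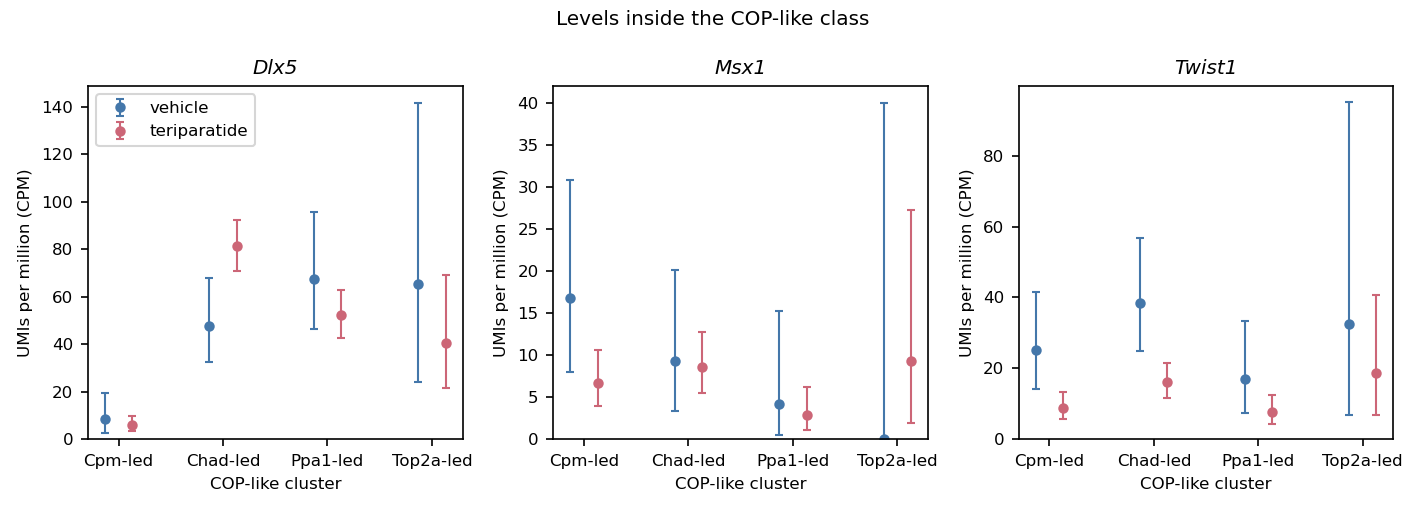
Levels of Dlx5, Msx1 and Twist1 (CPM, linear axes from 0) in the 4 COP-like clusters of the vehicle (blue) and teriparatide (red) libraries, with exact Poisson 95% intervals. Dlx5 is lowest in the Cpm-led cluster in both libraries, and the teriparatide value of Twist1 is below the vehicle value in all 4.

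Twist1 in OB-like cells had a log2 ratio of -0.37 (-0.59 to -0.14), less than 1.5-fold, and male and female cells lay on opposite sides of 0. That difference was not tested. Male cells had 97.0 CPM with vehicle and 130.5 CPM with teriparatide, a ratio of 0.43 (0.04 to 0.84). Of the 298 male UMIs with teriparatide, 33 came from 1 cell, and the male ratio without that cell was not computed. In the vehicle library 1 OB-like cell held 51 of 354 UMIs. Its sex call is not given here, and the ratios by sex without it were not computed. Female cells had 155 and 80.4 CPM, a ratio of -0.94 (-1.84 to -0.17), but the teriparatide library had only 5 female cells with 14 UMIs, against 58 cells in the vehicle library. Dlx3 had a ratio of -0.15 (-0.45 to 0.15) over all OB-like cells, Dlx5 of -0.28 (-0.61 to 0.05) and Dlx6 of -0.18 (-0.69 to 0.33), so that none of them was separated between the libraries.

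Several members also had different levels in male and female cells within the vehicle library alone, where 30 of the called OB-like cells were male and 58 female. Twist1 was lower in male than in female cells in OB-like cells (97.0 against 155 CPM, log2 ratio -0.67, -1.09 to -0.27). The same direction was seen in MALP-like cells (49.0 against 75.4 CPM, -0.62, -1.25 to -0.01) and COP-like cells (20.9 against 51.8 CPM, -1.31, -2.26 to -0.29). Among the OB-like vehicle cells, 1 cell held 51 of the 354 UMIs of Twist1, and its sex call is not given here. Twist2 in MALP-like cells was 13.3 CPM in male and 37.7 CPM in female cells (-1.51, -2.71 to -0.44). Dlx5 was lower in male preOB-like cells (212 against 336 CPM, -0.66, -1.14 to -0.20) and higher in male MALP-like cells (90.1 against 51.5 CPM, 0.81, 0.23 to 1.40). Dlx6 was higher in male MALP-like cells (22.5 against 8.80 CPM, 1.36, 0.01 to 2.87) and lower in male COP-like cells, there from 6 and 6 UMIs (-2.46, -4.36 to -0.55). The other pairs of a member and one of these 4 classes had intervals that included 0 or no ratio. In the teriparatide library, with 5 to 25 female cells in these classes, the interval of each ratio named here included 0. Twist1 had 0.70 in OB-like, 0.57 in MALP-like and 0.36 in COP-like cells, each opposite to vehicle. So were Dlx5 in preOB-like (0.12) and Dlx6 in COP-like cells (1.74). In MALP-like cells Twist2 (-0.20), Dlx5 (0.59) and Dlx6 (0.29) kept the direction seen with vehicle. The cells of a sex may come from 2 or 3 mice, and mouse and sex cannot be told apart.

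In MALP-like cells the intervals of all 4 members included 0. The log2 ratios were 0.07 (-0.35 to 0.49) for Dlx5, 0.12 (-0.55 to 0.79) for Msx1, -0.23 (-0.72 to 0.25) for Twist1 and -0.14 (-0.91 to 0.60) for Twist2. In male cells alone Twist2 had a ratio of 0.71 (-0.46 to 1.97), from 10 and 20 UMIs.

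**Figure D4:**
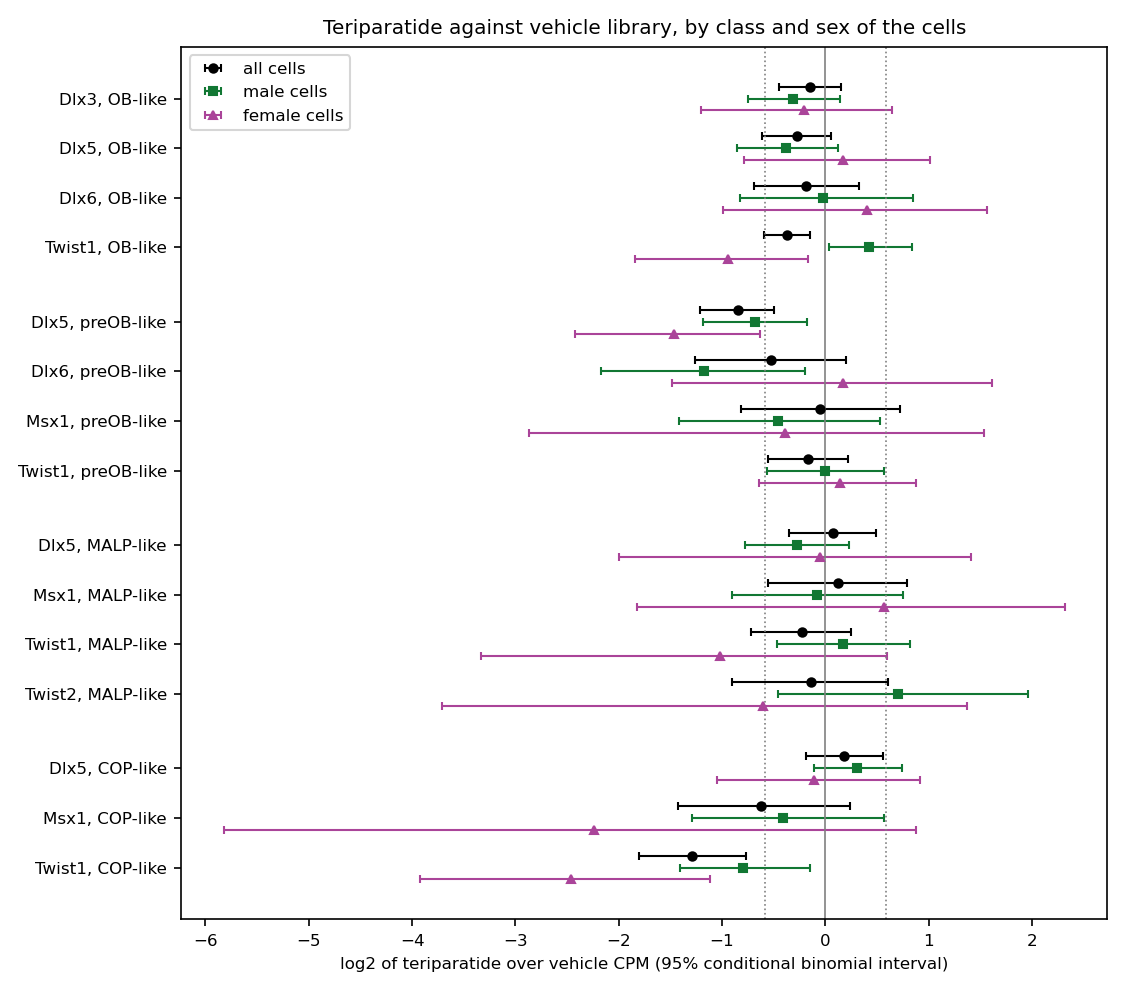
Log2 ratio of teriparatide to vehicle CPM for the 15 pairs of gene and class with at least 50 UMIs, in all cells (black circles), male (green squares) and female cells (purple triangles), with 95% conditional binomial intervals and dotted lines at 1.5-fold. The intervals of Dlx5 in preOB-like and Twist1 in COP-like cells lie below 0 in all 3 sets, and for Twist1 in OB-like cells the male interval lies above and the female interval below 0.

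Related regulators were read from lists in the OB-like, preOB-like, MALP-like and COP-like cells, against the same shares of all genes past 1.5-fold. Of 7 other Dlx and Msx genes, 6 were among the measured genes and none reached 50 UMIs in a class. Dlx6os1 had 90 UMIs in all mesenchymal cells, Dlx4 had 27, Dlx2 had 7 and Msx3 had 3. Of 18 other limb homeobox genes, 8 had 50 UMIs in OB-like cells, with 0 higher and 1 lower (Pitx1), and 6 in preOB-like cells, with 0 higher and 1 lower (Prrx1). Of 6 in COP-like cells 0 were higher and 2 lower (Prrx2 and Pbx3), with Pbx3 within counting error (-0.64, -1.26 to 0.01). Prrx1, a regulator of early limb mesenchyme, had 539 and 325 CPM in preOB-like cells, a log2 ratio of -0.73 (-0.97 to -0.50), near that of Dlx5. Shox2, a gene of limb growth, had 230.4 and 183 CPM there (-0.33, -0.67 to 0.00) and 275 and 234 CPM in COP-like cells.

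Of 14 osteoblast transcription factors, 12 reached 50 UMIs in OB-like cells, with 2 higher (Runx3 and Vdr) and 2 lower (Sox9 and Sox4), and 11 in preOB-like cells, with 2 higher (Runx3 and Vdr). In MALP-like cells 2 of 11 were higher (Runx2 and Runx3) and 1 lower (Vdr). In COP-like cells 3 of 13 were higher (Runx3, Mef2c and Vdr) and 3 lower (Runx1, Sox4 and Sox11). Of these, Sox9 in OB-like cells (-0.59, -1.44 to 0.25) and Vdr in COP-like cells (1.09, -0.12 to 2.60) were within counting error. Sox4 had a log2 ratio of -1.15 (-1.30 to -0.99) in COP-like and -0.85 (-1.08 to -0.62) in OB-like cells. Mef2c, a regulator of hypertrophy and of osteocyte genes, had one of 1.12 (0.89 to 1.36) in COP-like cells. Atf4, which drives late osteoblast genes, had one of -0.73 (-1.13 to -0.34) in preOB-like cells.

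A list of basic helix-loop-helix and Id genes was measured as well. It held dimer partners of Twist proteins, the Id genes, whose proteins block them, and other genes such as Bhlhe40 and Scx. Of 13 genes, 8 reached 50 UMIs in OB-like cells, with 1 higher (Id1) and 1 lower (Bhlhe40), and 7 in preOB-like cells, with 2 higher (Tcf4 and Id2) and 1 lower (Tcf3). In MALP-like cells 2 of 8 were higher (Id3 and Bhlhe40) and 1 lower (Tcf3), and in COP-like cells 0 of 10 were higher and 1 lower (Scx). Id1 in OB-like cells (0.65, -0.07 to 1.40) and Bhlhe40 in MALP-like cells (0.75, -0.11 to 1.62) were within counting error. Tcf4, an E protein, had 239 and 366 CPM in preOB-like cells, a log2 ratio of 0.61 (0.33 to 0.90). Id3 had 1863 and 1563 CPM there (-0.25, -0.37 to -0.14) and 692 and 1124 CPM in MALP-like cells (0.70, 0.58 to 0.82). Of the 4 Snail and Zeb genes, repressors that Twist genes often accompany in mesenchyme, 0 were higher in these classes. In MALP-like cells 1 of 3 was lower (Snai1, -0.97, -1.56 to -0.41), and in COP-like cells 1 of 4 (Zeb2, -0.61, -1.21 to 0.03). OB-like and preOB-like cells had 3 and 2 of these genes past 50 UMIs and none past 1.5-fold.

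Genes with the most similar pattern to each member were found by Pearson correlation of log2(CPM + 10) over 18 cluster-by-library profiles with at least 10 cells, among 8011 genes (8012 for Msx2 and Twist2, which had under 200 UMIs themselves). The profiles share the 2 libraries and differ in depth, so the values are descriptions. Dlx3 was nearest to Ndrg4 (0.95), Pcdh7 (0.94) and Sema4d (0.93), and Msx1 to Loxl1 (0.95), Lrp1 (0.94) and Cpxm1 (0.93). Twist1 was nearest to Ano6 (0.90), Nkd2 (0.89) and Gucy1a3 (0.87), and Twist2 to Rmnd1 (0.92), Adamtsl3 (0.89) and March5 (0.89). Dlx5 was nearest to Mrpl43 (0.86), Mat2b (0.82) and Id3 (0.80), Dlx6 to Klhdc4 (0.88), Ptpn13 (0.86) and Ppfibp2 (0.85), and Msx2, from 42 UMIs, to Gga2 (0.90) and Slc17a9 (0.86). Among the members themselves the nearest pairs were Dlx6 and Twist1 (0.70), Msx1 and Twist2 (0.62) and Dlx5 and Dlx6 (0.61), and Dlx3 was lowest with Twist2 and Msx1 (-0.46 each).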

How the data were processed

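Cells sorted from the femoral metaphysis were profiled on the 10x Genomics platform (3' v2 chemistry), with 1 vehicle and 1 teriparatide library. The deposited values are raw UMI counts per gene and cell, made by the authors with Cell Ranger, version 2.1.0 on mm10 according to the submitters' processing notes, while the matrix headers name software version 3.1.0. The 7 members and all gene lists were chosen with earlier results of these data known.

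Barcodes with 200 to 6000 genes and at most 10% mitochondrial UMIs were kept (549 vehicle and 1217 teriparatide cells). Libraries were integrated by canonical correlation analysis and clustered in Seurat 5.3.0 (R 4.3.3) on 20 dimensions at resolution 0.6, with the members, lists and markers left out of the 2000 variable genes. Clusters of hematopoietic-like and erythroid-like cells and 4 further cells with Ptprc were removed, and the rest clustered again. A class name required 3 markers, each in at least 10% of the cells and above the mean of the other clusters, and no majority of another class's markers among the 10 leading genes. Doublets were limited by the maximum on genes, since Scrublet (scanpy 1.11.5) marked 1 and 0 cells and so did not work. UMIs were summed per class and library and given as CPM. With 1 library a condition no test was run. Intervals are at 95% and a gene was counted as past the fold at 1.5-fold with at least 50 UMIs in the class. The interval and fold code was tested on simulated data. Limits for a count of 0 use 3 counts. The sex of a cell was called from 4 Y-linked genes (Kdm5d, Uty, Eif2s3y, Ddx3y) against Xist, and cells with both or neither had no call. Cells were thinned to 3400 UMIs, leaving out shallower ones, for shares at equal depth. The shares and the ratios after thinning come from separate random draws. All 7 members were named. From each list, at most 4 genes with most mesenchymal UMIs were to be named with values, and the 3 genes nearest to each member. Genes counted as past the fold where 5 or fewer were counted are also named, which was chosen after their values were seen. Positions are from GENCODE vM21 (GRCm38). Alternatives covered filters, gates, resolution, scaling, thinning, weighting, top cells, sex and doublets, and the comparisons without pericyte markers, within Col1a1 ranges and within COP-like clusters were added after seeing the data. A few results on other genes of these lists and on genes near a member are not reported here.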

Additional observations from a re-analysis of the deposited data

Results flagged for a closer look

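Twist1 in OB-like cells was higher with teriparatide in male cells, at a log2 ratio of 0.43 (0.04 to 0.84), and lower in female cells, at -0.94 (-1.84 to -0.17), so that the intervals lay on opposite sides of 0. The female value rests on 5 teriparatide cells with 14 UMIs. In the male value, 1 teriparatide cell held 33 of 298 UMIs, and the ratio without it was not computed. Among the OB-like vehicle cells, 1 cell of a sex call not given here held 51 of 354 UMIs. The difference between the sexes was not tested, as there was 1 library in each condition.

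Dlx5 went in different directions in different clusters. Its log2 ratio was 0.77 in the Chad-led COP-like cluster, -0.85 in the preOB-like cluster and -0.99 in the osteocyte-like cluster, each with an interval that did not include 0. The difference between the clusters was not tested. These values were found in a search over all members, clusters and both sexes.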

How the results depend on the processing

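No paired analysis was possible because each condition had 1 library, and for the same reason no replicate could be left out. Of 169 recomputed ratios between libraries 152 stayed inside the interval of the reported value and 17 did not, and of 129 recomputed contrasts between classes 108 did and 21 did not. Both totals include the setting that left out cells marked by Scrublet. That setting took no cell from any named class and so could not move a value. Dlx5 in preOB-like and Twist1 in COP-like cells and the recomputed contrasts with an interval off 0 kept their sign. The ratios of the other genes, of members under 50 UMIs and of single clusters, and the contrasts with osteocyte-like cells, were not recomputed. The ratio of Dlx5 in preOB-like cells ranged from -1.47 (female cells) to -0.52 (gate on each cell) and that of Twist1 in COP-like cells from -2.47 (female cells) to -0.79 (male cells). That of Twist1 in OB-like cells ran from -0.94 in female to 0.43 in male cells. The number of members past 1.5-fold higher was 0 over the classes. It was 1 in male cells (Twist2 in MALP-like cells) and 1 after thinning (Msx1 in preOB-like cells). Thinning was a single random draw. In a separate draw Msx1 there had 36.8 CPM with vehicle and 45.2 CPM with teriparatide, less than 1.5-fold apart. That draw instead put Dlx5 in MALP-like cells past 1.5-fold higher, at 43.0 CPM with vehicle and 70.7 CPM with teriparatide. It put Dlx5 in OB-like cells past 1.5-fold lower, at 93.9 and 32.3 CPM. The draw used for the counts gave these pairs log2 ratios of -0.11 and -0.07, so the counts after thinning depend on the draw. Without the 5 cells with most UMIs of the gene, the number higher was 1 (Dlx5 in COP-like cells). Those were 5 of 66 vehicle and 5 of 263 teriparatide cells, which tends to raise the ratio. The number lower was 3, but 5 at a limit of 20% mitochondrial UMIs, 6 in female cells and 5 after thinning. The cause was not tested. The number lower was 2 with median-ratio scaling or the mean over cells, where Msx1 in COP-like cells came to -0.42 and -0.56, and 2 with each cell gated, where Dlx5 in preOB-like cells came to -0.52. The OB-like over preOB-like contrast of Dlx3 in the vehicle library was 2.82 on the log2 scale but 0.97 with each cell gated. With at least 10 UMIs in place of 50, more genes entered and the number of all genes higher was 1288 in place of 418 in OB-like, 1378 in place of 370 in preOB-like, 1392 in place of 566 in MALP-like and 1569 in place of 752 in COP-like cells. The number lower was 1675 in place of 881 in OB-like, 2085 in place of 825 in preOB-like and 1436 in place of 695 in MALP-like cells. Depth limits Msx2 in all classes and all members in osteocyte-like and hypertrophic-like cells, where no ratio rests on 50 UMIs.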

Other observations

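Cells with at least 3 of the 7 genes made up 52.1% of OB-like vehicle and 58.1% of OB-like teriparatide cells, against 38.3% and 37.0% of preOB-like, 22.4% and 30.0% of MALP-like and 13.6% and 5.32% of COP-like cells. The classes differ in depth. Thinned to 3400 UMIs, a cell with any of the 7 genes made up 78.6% and 57.7% of preOB-like cells, against 56.4% and 50.5% of OB-like and 44.7% and 50.6% of MALP-like cells.

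The antisense gene Dlx6os1 had 1 UMI in 66 vehicle and 28 UMIs in 263 teriparatide COP-like cells, a log2 ratio of 2.68 (0.08 to 8.03). Dlx6, which it overlaps, had 13 and 30 UMIs there, a log2 ratio of -0.92 (-1.90 to 0.14).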
